A study of Homo sapiens with 12 samples.

Results

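The genes described here encode the translation initiation factors outside eIF4F, together with their direct regulators. They were chosen by name: every gene of the deposited tables whose symbol begins with EIF and a digit from 1 to 6, without the 9 genes of the eIF4F cap-binding complex, the relatives of its subunits eIF4A and eIF4G, and its cofactors eIF4B and eIF4H. This gave 47 genes of the 19038 transcripts in the RNA table. The rule used names alone, but it was set with earlier results of these data known. They were grouped by complex, and Ensembl names are those of the deposited tables.

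The samples were xenografts of 22Rv1, an established human prostate cancer cell line, grown under the skin of the flank of male immunodeficient NSG mice injected at an age of 6 to 8 weeks. Animals received 1 of 2 treatments by intraperitoneal injection once tumours measured 70 to 100 mm3: zotatifin at 0.3 mg/kg in 5% dextrose, or the 5% dextrose vehicle alone. Tumours were taken 6 h later, and ribosome footprints of 24 to 34 nt from monosome fractions and total RNA were sequenced from the same lysates. Both treatments were measured with both assays, which makes 4 groups of 3 libraries numbered as biological replicates, 12 in all. Every tumour came from the 1 cell line, and the labels name no step that removed host cells or host reads.

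Initiation begins when eIF2, bound to GTP, carries the initiator methionyl-tRNA to the small ribosomal subunit, where eIF1, eIF1A, eIF3 and eIF5 hold it in a state that can scan the messenger RNA for a start codon. Hydrolysis of the GTP releases eIF2, which eIF2B recharges. Kinases that phosphorylate the eIF2 alpha subunit turn eIF2 into an inhibitor of eIF2B, and eIF5B then joins the large subunit, which eIF6 otherwise keeps apart. Zotatifin acts one step earlier, on the eIF4A helicase of eIF4F, which it clamps onto purine-rich RNA. None of the genes described here encodes eIF4A, and a direct action on their messengers was not tested.

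Footprint libraries held 838135 to 2013968 counts and RNA libraries 5761921 to 8153674. The 47 genes took 1.19 to 1.21% of all footprint counts and 0.761 to 0.814% of all RNA counts in each library. Levels are counts scaled to a common library size (CPM) after trimmed-mean scaling of library sizes, so each value is relative to the rest of its library, and an overall change in translation or RNA content would not show. In whole tumours, fewer cells of a type and less RNA per cell cannot be told apart. Prostate epithelial markers were all measured (10 of 10), with a summed footprint level of 4069 to 5364 CPM in vehicle and 5362 to 6187 CPM in zotatifin libraries, and 3 of them rose. Of the fibroblast markers, 5 of the 6 tested fell in footprints, and the summed level of the 10 on the list went from 461 to 794 CPM in vehicle libraries to 140 to 257 CPM in zotatifin libraries. The summed level of the 8 myeloid markers was 76.0 to 349 CPM in vehicle and 36.2 to 65.0 CPM in zotatifin libraries, where 1 of the 8 stood at 0 in every library, and 2 of the 4 tested fell. Endothelial markers summed to 2.78 to 4.45 CPM in vehicle and 0 to 3.68 CPM in zotatifin footprints, and red blood cell markers to 101 to 254 and 129 to 156 CPM. Over all genes tested in footprints, 3.22% rose and 3.92% fell at an adjusted p under 0.05 (edgeR). In RNA, 4 of 6 fibroblast, 1 of 3 myeloid and 1 of 3 red blood cell markers tested fell, against 0.907% of all genes. No epithelial or endothelial marker was called in RNA. The part of these shifts in the results on initiation factors was not tested.

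Footprints addressed whether the footprint level of each gene changed within 6 h of zotatifin. That level moves with the amount of messenger as well as with the ribosomes on each messenger. A low-count filter left 43 of the 47 genes for this test. EIF2AK3, EIF4E3, EIF4E1B and EIF5A2 fell below it, with at most 16 footprint counts in any library. Among the 43, EIF3J, EIF3C and EIF3CL rose and EIF1AX, EIF1AY and EIF2S2 fell (edgeR quasi-likelihood test, Benjamini-Hochberg adjusted p under 0.05 over all genes). Across all 9544 genes tested, 7.14% were called, 3.22% higher and 3.92% lower, and the count of 6 in 43 was not tested against that share. The 3 vehicle and 3 zotatifin values did not overlap for 16 of the 43, against 26.4% of all genes. The median log2 change was 0.0051 over the 43 and 0.0030 over all genes. Without vehicle replicate 1 none of the 6 passed, and only 185 genes did in all; without any other single library 4 to 6 initiation factors passed.

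RNA addressed whether messenger levels moved in the same 6 h, with 46 of the 47 genes tested and EIF4E1B left out. EIF6 rose and no gene of the group fell, against 1.72% of all 13118 genes called, 0.808% higher and 0.907% lower. The 2 groups of values did not overlap for 10 of the 46, against 23.1% of all genes. The median log2 change was 0.078 over the 46 and −0.0023 over all genes. Translational efficiency (TE), the footprint level relative to the RNA level of the same gene, was tested in 43 genes as an assay-by-treatment interaction. EIF3J rose and none fell, against 1.69% of all 9454 genes called, 0.476% higher and 1.22% lower, and groups did not overlap for 15 of the 43, against 26.3% of all genes. The median TE log2 change was −0.076 over the 43 and 0.016 over all genes. Footprint and RNA libraries with the same number in a treatment come from 1 tumour. With the tumour as a block, 3 genes rose (EIF3J, EIF3F, EIF3C) and 7 fell (EIF1AX, EIF1AY, EIF2B1, EIF2S1, EIF2S2, EIF5, EIF6), against 8.66% of all genes called, 3.62% higher and 5.05% lower. Leaving out 1 tumour at a time in the blocked fit left 3 to 7 of the 43 called. EIF3J was called in 6 of these 6 fits, EIF2S1 in 5, EIF1AY in 4 and EIF3C in 0.

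**Figure D1:**
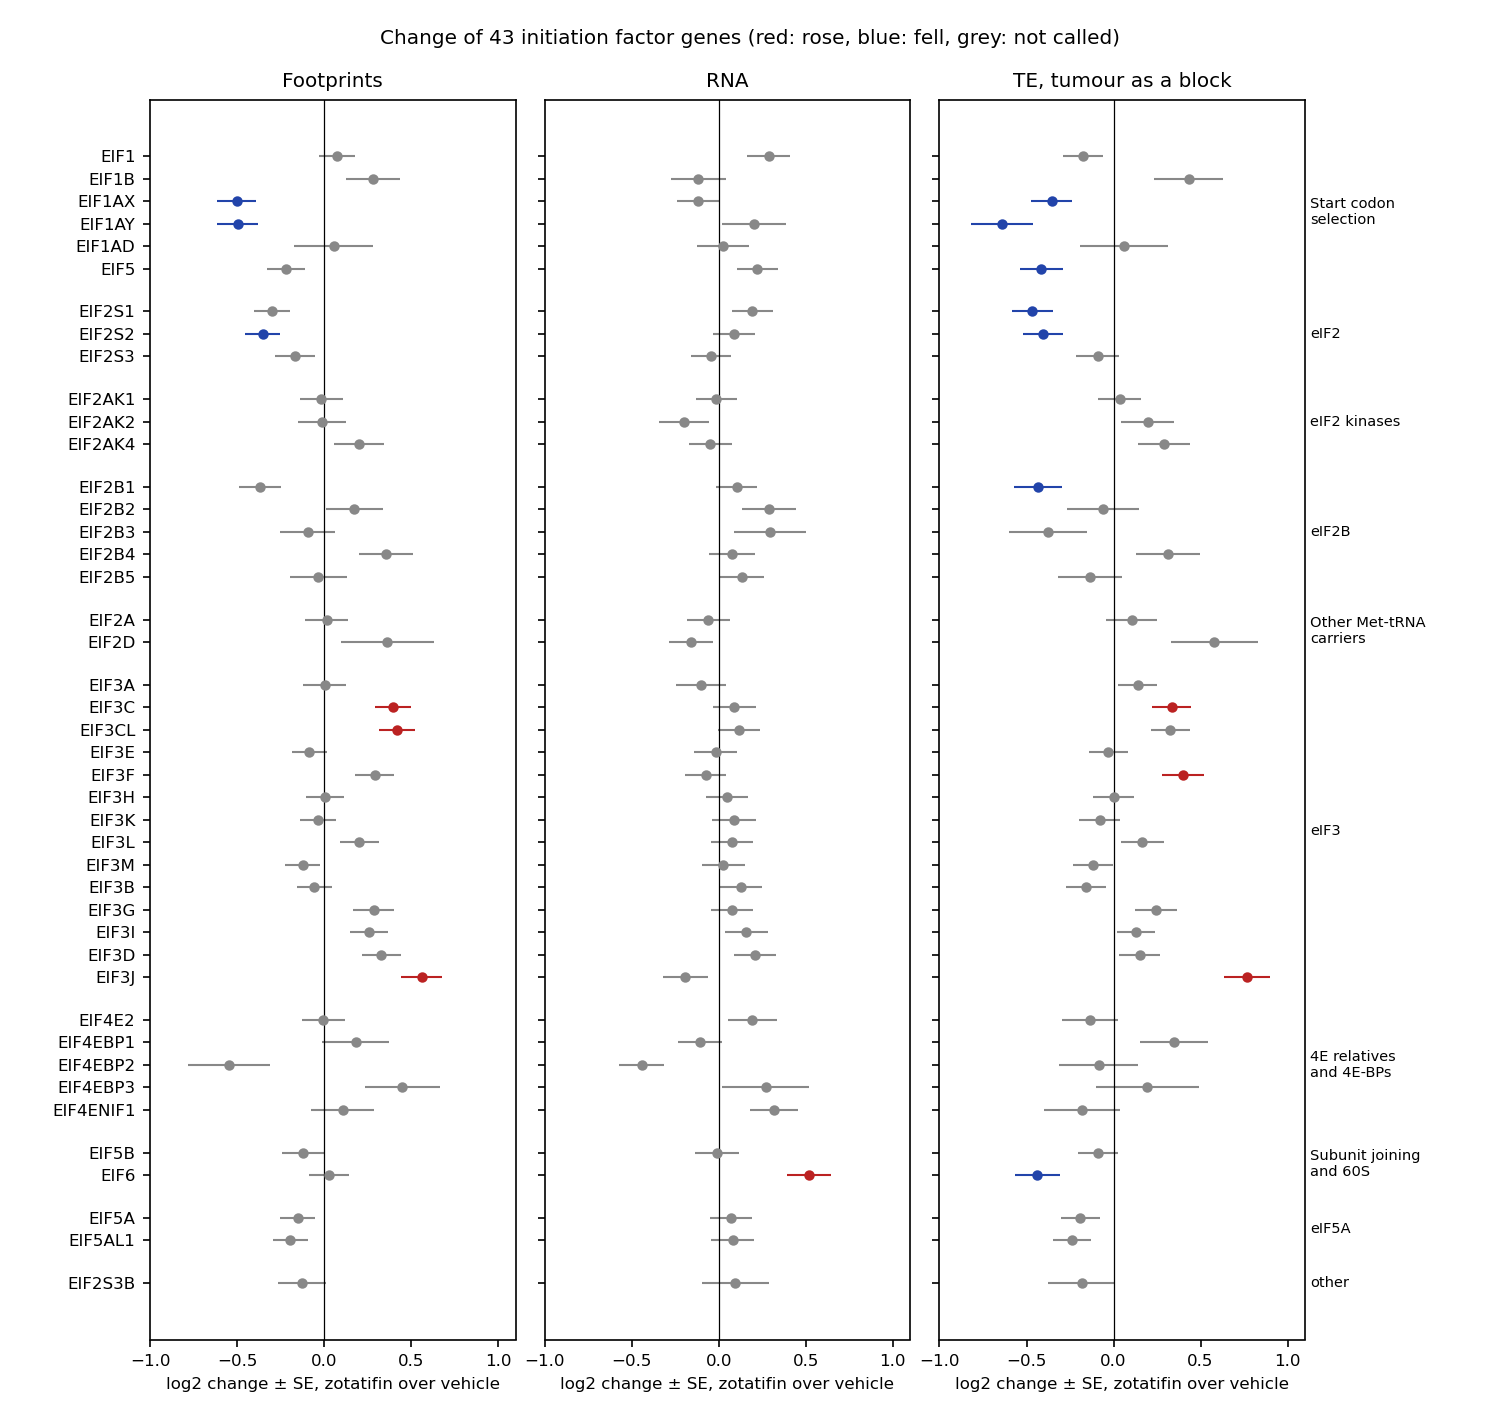
Log2 change with zotatifin over vehicle for the 43 genes tested in footprints, grouped by complex, in footprints, RNA and TE with the tumour as a block. Points are edgeR estimates, bars are standard errors, and red and blue mark genes that rose or fell at an adjusted p under 0.05. The 3 eIF2 subunits lie left of 0 in footprints and TE. Of the 14 eIF3 genes, 10 lie right of 0 in footprints (50.3% of all genes), with EIF3C and its copy EIF3CL both counted. In TE, 9 of the 14 lie right of 0 and 5 left of it.

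The start codon selection group holds EIF1 and EIF1B, which keep the scanning ribosome open, EIF1AX and EIF1AY, which encode eIF1A from the X and the Y chromosome, the eIF1A-related EIF1AD, and EIF5, which triggers GTP hydrolysis on eIF2. Of the 6, 2 fell in footprints and none rose (3.92% and 3.22% of all genes). The 2 are EIF1AX and EIF1AY, whose coding sequences are nearly alike and which count as 1 gene when summed. EIF1AX (ENST00000379607) footprints stood at 355, 299 and 294 CPM in vehicle replicates 1 to 3 and at 233, 201 and 232 CPM in zotatifin replicates 1 to 3. Every zotatifin library was below every vehicle library, and the means were 316 ± 33.8 and 222 ± 18.3 CPM (SD, n = 3). The log2 change was −0.50 ± 0.11 (SE; edgeR adjusted p = 0.0055), and RNA was at −0.12 ± 0.12 (edgeR adjusted p = 0.644). TE of EIF1AX was at −0.36 ± 0.16 (edgeR adjusted p = 0.288) and at −0.36 ± 0.12 with the tumour as a block (edgeR adjusted p = 0.0489), a call that held in 1 of the 6 fits with 1 tumour left out, the one without vehicle replicate 2.

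EIF1AY (ENST00000361365) followed the same course, from 182, 179 and 164 CPM to 123, 112 and 135 CPM, with no overlap. Its footprint log2 change was −0.50 ± 0.12 (edgeR adjusted p = 0.0095). TE of EIF1AY was at −0.67 ± 0.21 (edgeR adjusted p = 0.0913) and at −0.64 ± 0.18 with the tumour as a block (edgeR adjusted p = 0.0162), and the blocked call was lost without vehicle replicate 1 or zotatifin replicate 2. Neither eIF1A gene was called in footprints without vehicle replicate 1, where the edgeR adjusted p was 0.0823 for EIF1AX and 0.0762 for EIF1AY. The coding sequences of this pair are nearly alike, and reads shared between them could have been split in counting. EIF1AY counts came to 0.512 to 0.600 of EIF1AX counts in footprints and to 0.140 to 0.278 in RNA. Summed into 1 gene, the pair fell by 0.50 in footprints on the log2 scale (edgeR adjusted p = 0.00358), so the fall does not rest on how reads were divided within the pair.

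EIF5 footprints were at 182, 177 and 183 CPM in vehicle and at 153, 159 and 154 CPM in zotatifin libraries, while its RNA was at 195, 202 and 178 CPM against 216, 215 and 240 CPM. The groups were apart in both assays, in opposite directions, and neither difference was called (edgeR adjusted p = 0.242 and 0.328). TE of EIF5 was at −0.41 ± 0.15 (edgeR adjusted p = 0.165) and fell with the tumour as a block, by 0.42 on the log2 scale (edgeR adjusted p = 0.0248), a call that held without vehicle replicate 2 or zotatifin replicate 2 and was lost without any other single tumour. EIF1 RNA was at 275, 291 and 244 CPM in vehicle and 322, 371 and 294 CPM in zotatifin libraries, apart but not called (edgeR adjusted p = 0.229). EIF1B and EIF1AD had overlapping groups in footprints and RNA.

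eIF2 has an alpha subunit that its kinases phosphorylate (EIF2S1), a beta subunit that contacts eIF5 and eIF2B (EIF2S2) and a gamma subunit that binds GTP and the initiator tRNA (EIF2S3). All 3 had footprint changes below 0, with a median of −0.30, and 1 was called. Over all genes, 50.3% had a footprint change above 0 and 3.92% were called lower. EIF2S2 (ENST00000374980) stood at 429, 430 and 436 CPM in vehicle footprints and at 361, 326 and 327 CPM in zotatifin footprints. The SD of the vehicle libraries was 3.86 CPM (n = 3), and every zotatifin library was lower. The log2 change was −0.35 ± 0.10 (edgeR adjusted p = 0.0303), with RNA at 0.088 ± 0.12. The EIF2S2 call was lost without any single library other than zotatifin replicate 1, with adjusted p up to 0.113 (edgeR). TE of EIF2S2 was at −0.41 ± 0.15 (edgeR adjusted p = 0.176) and fell by 0.40 with the tumour as a block (edgeR adjusted p = 0.0176), a call lost without vehicle replicate 1, vehicle replicate 3 or zotatifin replicate 2.

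EIF2S1 (ENST00000256383) had footprints of 384, 416 and 387 CPM in vehicle and 351, 311 and 302 CPM in zotatifin libraries. Its RNA was higher with zotatifin, at 94.9, 110 and 109 CPM against 118, 118 and 122 CPM. Groups did not overlap in either assay, and neither change was called on its own (edgeR adjusted p = 0.0737 for footprints and 0.408 for RNA). Log2 TE per tumour was 2.02, 1.92 and 1.83 in vehicle and 1.58, 1.40 and 1.31 in zotatifin tumours. The TE change was −0.46 ± 0.15 (edgeR adjusted p = 0.115). With the tumour as a block it was −0.47 ± 0.12 and was called (edgeR adjusted p = 0.00635), and without zotatifin replicate 3 it was not (edgeR adjusted p = 0.0635). EIF2S3 overlapped in both assays, at −0.17 ± 0.12 in footprints.

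The eIF2 kinases each respond to a different stress: EIF2AK1 to heme shortage, EIF2AK2 to double-stranded RNA, EIF2AK3 to unfolded protein in the endoplasmic reticulum and EIF2AK4 to amino acid shortage. None was called in any assay. EIF2AK4 had the largest footprint change of the 3 tested, from 77.6, 67.7 and 59.7 CPM to 81.6, 78.5 and 77.6 CPM, a log2 change of 0.20 ± 0.14 (edgeR adjusted p = 0.436). Only vehicle replicate 1 of EIF2AK4 reached the zotatifin range. EIF2AK3 had 16, 7 and 14 footprint counts in vehicle and 7, 4 and 4 in zotatifin libraries, too few to test.

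eIF2B is the exchange factor that recharges eIF2, with EIF2B1, EIF2B2 and EIF2B4 as its regulatory and EIF2B3 and EIF2B5 as its catalytic subunits. None of the 5 was called in footprints or RNA. All 5 RNA changes were above 0, with a median of 0.13, against 30 of the 46 initiation factors tested and 49.7% of all genes. EIF2B1 and EIF2B4 lay on opposite sides of 0 in footprints. EIF2B1 (ENST00000424014) was at 163, 140 and 149 CPM in vehicle and at 106, 118 and 125 CPM in zotatifin libraries (log2 change −0.37 ± 0.12, edgeR adjusted p = 0.0633). EIF2B4 was at 45.7, 62.7 and 63.5 CPM and then at 74.6, 76.0 and 69.2 CPM (0.36 ± 0.16, edgeR adjusted p = 0.165). Both pairs of groups were apart. TE of EIF2B1 fell by 0.43 with the tumour as a block (edgeR adjusted p = 0.0359, against 0.172 without the block), a call lost without any single tumour other than zotatifin replicate 3.

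EIF2A and EIF2D encode proteins that can bring initiator tRNA to the ribosome without eIF2. Both had footprint changes above 0 and RNA changes below 0, and neither was called. EIF2D footprints were at 26.5, 15.5 and 12.1 CPM in vehicle and at 20.0, 29.4 and 23.3 CPM in zotatifin libraries, which overlap. Leaving out single libraries moved its log2 change between 0.16 and 0.77.

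eIF3 is the largest initiation factor and bridges the small subunit to eIF4F. The tables hold 14 of its genes: 9 of the PCI and MPN octamer that forms its core (with EIF3CL, a copy of EIF3C), the EIF3B, EIF3G and EIF3I module, and the peripheral EIF3D and EIF3J. In footprints 3 rose and none fell (3.22% and 3.92% of all genes), 10 of 14 were above 0 (50.3% of all genes) and 7 had groups apart (26.4% of all genes), with a median log2 change of 0.23. EIF3C and its copy both enter these counts. Without EIF3CL, 2 of 13 rose, 9 were above 0, 6 had groups apart and the median was 0.20. In RNA none was called and the median was 0.076. In TE without the tumour block, 9 of the 14 were above 0 (51.9% of all genes) and 5 below. The TE groups were apart for 4 (26.3% of all genes), with a median of 0.14.

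EIF3J, a loosely bound subunit that sits near the messenger RNA channel of the small subunit, had the largest rise of all 43 genes. EIF3J (ENST00000261868) footprints were at 598, 673 and 707 CPM in vehicle and at 873, 1199 and 854 CPM in zotatifin libraries, and RNA was at 60.8, 66.1 and 60.4 CPM against 59.5, 50.9 and 53.3 CPM. Zotatifin libraries were above vehicle libraries in footprints and below them in RNA, with zotatifin replicate 2 the farthest in both. Footprint means were 659 ± 55.8 and 976 ± 194 CPM (SD, n = 3), a log2 change of 0.56 ± 0.12 (edgeR adjusted p = 0.0035), and the RNA change was −0.19 ± 0.13 (edgeR adjusted p = 0.446).

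Log2 TE of EIF3J was 3.30, 3.35 and 3.55 in vehicle and 3.88, 4.56 and 4.0 in zotatifin tumours. Already in vehicle tumours, 99.6% of the 9454 genes tested had a lower TE, so EIF3J is an outlier in its ratio of footprints to RNA. The TE change was 0.78 ± 0.18 (edgeR adjusted p = 0.0183). It was 0.76 ± 0.13 with the tumour as a block (edgeR adjusted p = 7.27e-05), where the highest adjusted p with 1 tumour left out was 0.00326 (edgeR). Without the block the TE call was lost when any vehicle replicate or zotatifin replicate 2 was left out, with adjusted p up to 0.120 (edgeR). The authors' deposited table gives EIF3J a much smaller TE change, 0.195 on the log2 scale with an FDR of 0.154. The 2 estimates differed by −0.59, and only 0.266% of 4889 well-counted genes differed by more. EIF3J TE is therefore called from the counts and not in the authors' deposited table, from the same libraries.

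EIF3C, a core subunit that contacts eIF1 and eIF5, and its copy EIF3CL carry nearly the same sequence on chromosome 16. EIF3C (ENST00000331666) stood at 497, 546 and 600 CPM in vehicle footprints and at 781, 671 and 708 CPM in zotatifin footprints, with every zotatifin library above every vehicle library. The log2 change was 0.40 ± 0.10 (edgeR adjusted p = 0.0179), and for EIF3CL it was 0.42 ± 0.11 (edgeR adjusted p = 0.0142). EIF3CL counts were 0.973 to 1.02 of EIF3C counts in each footprint library, so these are in effect 1 measurement. Summed, they rose by 0.41 (edgeR adjusted p = 0.0168). EIF3C lost its call without vehicle replicate 1, vehicle replicate 2 or zotatifin replicate 1 (edgeR adjusted p up to 0.154), and EIF3CL without vehicle replicate 1 or zotatifin replicate 1 (up to 0.131). TE of EIF3C was at 0.34 ± 0.16 (edgeR adjusted p = 0.305) and at 0.33 ± 0.11 with the tumour as a block (edgeR adjusted p = 0.046), where it was lost without any single tumour. EIF3CL had a blocked adjusted p of 0.0543 (edgeR).

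EIF3F, an MPN subunit of the core, had footprints of 172, 186 and 161 CPM in vehicle and 224, 211 and 202 CPM in zotatifin libraries, which did not overlap. The footprint change was 0.29 ± 0.11 (edgeR adjusted p = 0.107). TE was at 0.40 ± 0.15 (edgeR adjusted p = 0.19) and rose by 0.40 ± 0.12 with the tumour as a block (edgeR adjusted p = 0.0286). That call held without vehicle replicate 2 or zotatifin replicate 2 and was lost without any other single tumour. EIF3D, a subunit that can bind the cap of some messengers, went from 237, 284 and 294 CPM to 376, 318 and 327 CPM, apart but not called (0.33 ± 0.11, edgeR adjusted p = 0.0652). EIF3G and EIF3I were also apart in footprints, at 0.29 ± 0.12 and 0.26 ± 0.11 (edgeR adjusted p = 0.148 and 0.14). The other core genes EIF3A, EIF3E, EIF3H, EIF3K, EIF3L and EIF3M overlapped, with log2 changes from −0.12 to 0.20, and EIF3B was at −0.055. Over the 14 genes of eIF3 the footprint change ranged from −0.12 to 0.56.

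**Figure D2:**
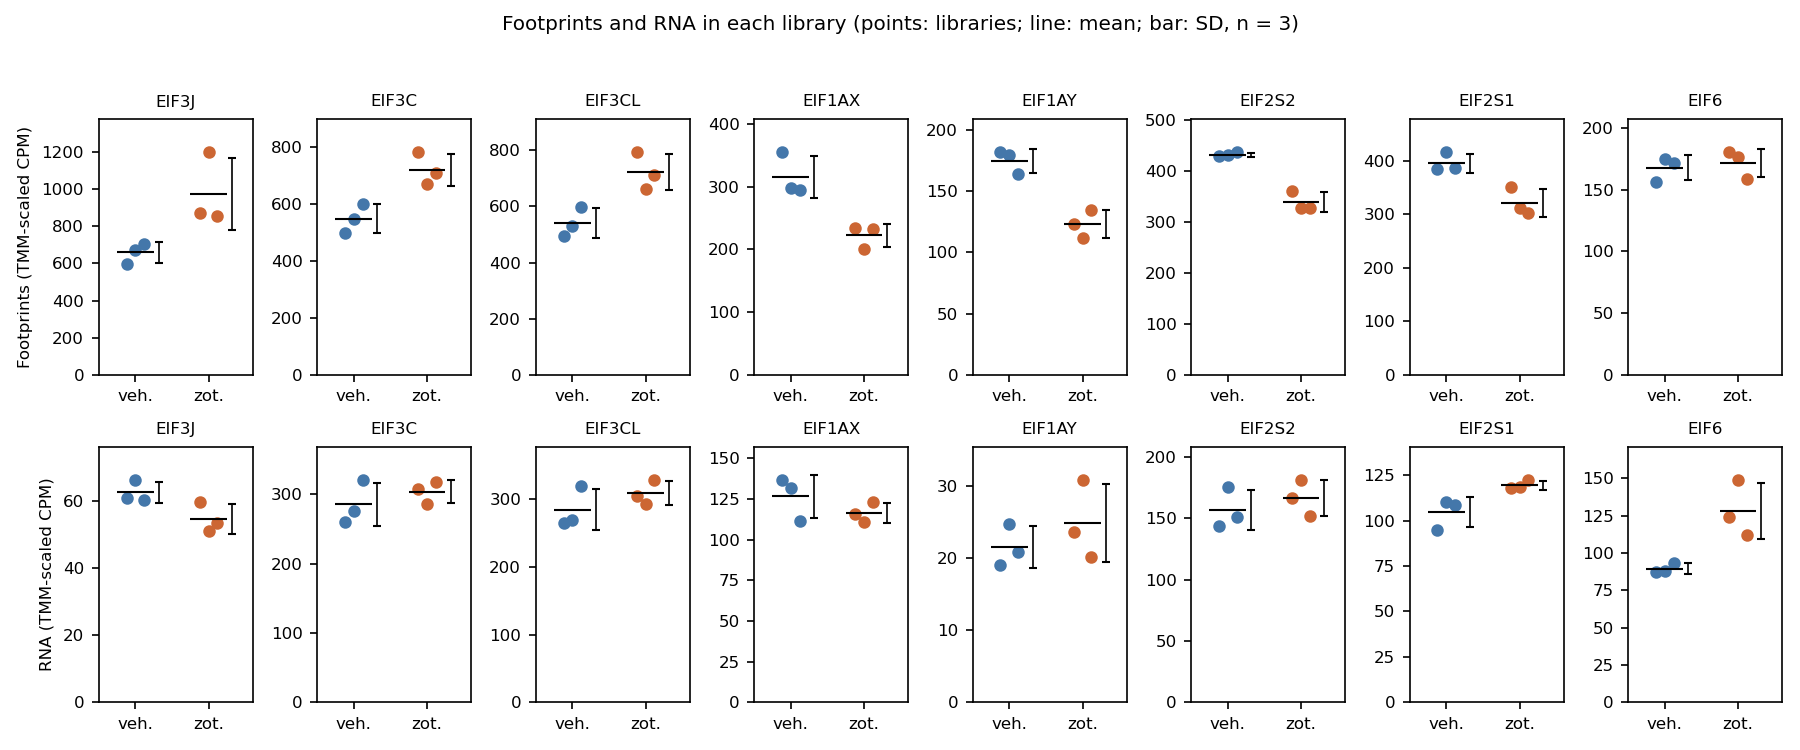
TMM-scaled CPM of 8 genes in footprints (upper row) and RNA (lower row), with 1 point per library, the group mean as a line and the SD as a bar (n = 3). Each axis starts at 0. For EIF3J, EIF3C and EIF3CL the zotatifin footprints lie above the vehicle footprints, for EIF1AX, EIF1AY, EIF2S1 and EIF2S2 they lie below, and for EIF6 the RNA but not the footprints of the 2 groups separate.

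The relatives of eIF4E (EIF4E2, EIF4E3, EIF4E1B) bind caps, and the 4E-binding proteins (EIF4EBP1, EIF4EBP2, EIF4EBP3) and EIF4ENIF1 bind eIF4E itself. None of the 5 tested in footprints was called. EIF4EBP2 (ENST00000373218) had RNA of 279, 228 and 213 CPM in vehicle and 180, 156 and 194 CPM in zotatifin libraries, with every zotatifin library below. The RNA change was −0.44 ± 0.13 (edgeR adjusted p = 0.0787). It passed with no low-count filter (edgeR adjusted p = 0.0333), with a replicate block and with DESeq2 (adjusted p = 0.0392). The authors' deposited table, also from DESeq2 on the same libraries, gives an adjusted p of 0.0399. It did not pass with other scaling of library sizes or a minimum count of 20. With any single library left out, EIF4EBP2 RNA was not called (edgeR adjusted p from 0.0921 to 0.296). Its footprints, at 36.4, 21.1 and 28.6 CPM against 19.1, 23.3 and 18.1 CPM, overlapped (−0.55 ± 0.24, edgeR adjusted p = 0.163). EIF4ENIF1 RNA was at 46.3, 39.9 and 37.1 CPM in vehicle and 51.8, 49.7 and 52.1 CPM in zotatifin libraries, apart but not called (edgeR adjusted p = 0.22). EIF4EBP3 shares its locus with a readthrough transcript, so its reads may be divided.

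EIF6, which binds the large subunit and keeps it from joining too early, was the gene with a called RNA change. EIF6 (ENST00000374436) RNA stood at 87.4, 87.9 and 93.6 CPM in vehicle and at 124, 149 and 112 CPM in zotatifin libraries. All zotatifin libraries were higher, and the log2 change was 0.52 ± 0.13 (edgeR adjusted p = 0.042). The call was lost without any single library (edgeR adjusted p from 0.0531 to 0.189). Footprints of EIF6 were at 156, 175 and 172 CPM against 180, 177 and 158 CPM and overlapped, so log2 TE went from 0.84, 1.00 and 0.88 to 0.54, 0.25 and 0.50. That TE change was −0.46 ± 0.17 (edgeR adjusted p = 0.173) and −0.44 ± 0.13 with the tumour as a block (edgeR adjusted p = 0.0249), a call lost without vehicle replicate 2, vehicle replicate 3 or zotatifin replicate 2. EIF5B, the GTPase that joins the subunits, overlapped in both assays (311, 379 and 398 CPM against 375, 258 and 358 CPM in footprints).

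eIF5A, named as an initiation factor, promotes elongation at stalled peptide bonds and termination. EIF5A footprints were at 1499, 1494 and 1402 CPM in vehicle and at 1268, 1376 and 1315 CPM in zotatifin libraries. EIF5AL1, an intronless copy, was at 1031, 1097 and 1012 CPM against 851, 976 and 920 CPM. Both genes had groups apart and neither was called, with log2 changes of −0.15 ± 0.099 and −0.19 ± 0.10 (edgeR adjusted p = 0.39 and 0.253). EIF5AL1 counts came to 0.671 to 0.734 of EIF5A counts in footprints, and reads shared by the pair cannot be told apart here. EIF2S3B, a copy of EIF2S3 with 0.505 to 0.541 of its footprint counts, overlapped (−0.13 ± 0.14).

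**Figure D3:**
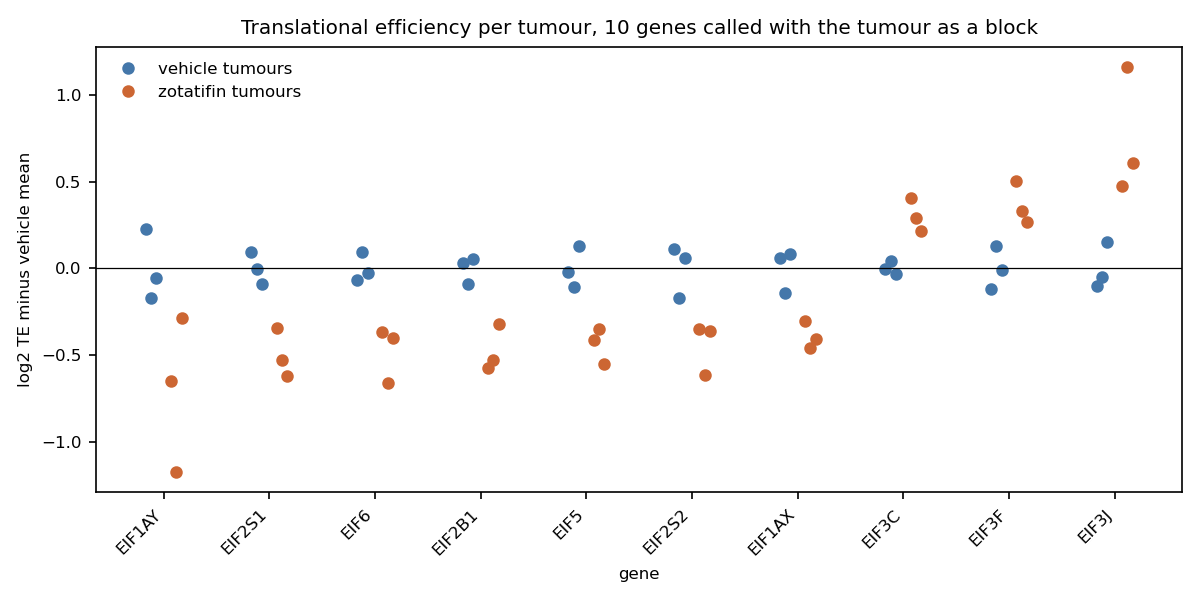
Log2 TE of each tumour minus the vehicle mean for the 10 genes called with the tumour as a block, with vehicle tumours in blue and zotatifin tumours in orange. In all 10 genes the 3 zotatifin tumours lie on 1 side of the 3 vehicle tumours, against 26.3% of all genes. The 10 were chosen by calls on these same values, so the separation adds no support to the calls. The widest spread among zotatifin tumours is in EIF1AY and EIF3J.

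**Figure D4:**
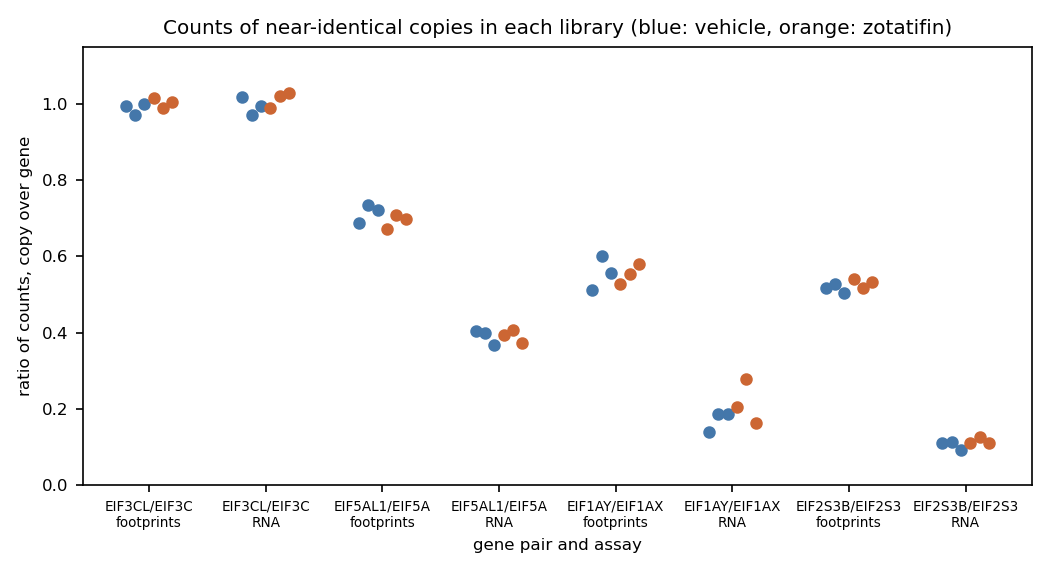
Ratio of the counts of a copy to those of its parent gene in each library, for 4 gene pairs in footprints and RNA. EIF3CL and EIF3C lie near 1 in every library, and the other 3 copies have a higher ratio in footprints than in RNA.

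The authors' deposited table gives its own TE estimate for 46 of the 47 genes, on a natural log scale converted here to log2. It lists 16 of the 46 at an FDR under 0.05, 7 higher and 9 lower, against 18.3% of all 11446 genes in it. The share of all genes in each direction was not computed. Both genes of the near-identical pairs EIF3C and EIF3CL, EIF1AX and EIF1AY, and EIF5A and EIF5AL1 enter the 16. Of the 10 genes called with the tumour as a block, 9 are among the 16 with the same sign, and EIF3J is the exception. The lowest FDR among the genes that fell in the authors' deposited table belongs to EIF2S1, at −0.51 (FDR 1.98e-10), and EIF5A is there at −0.23 (FDR 1.28e-09). EIF3F is at 0.56 (FDR 8.06e-09) in the authors' deposited table, EIF3C at 0.34 (FDR 4.32e-09) and EIF3G at 0.41 (FDR 0.000125). EIF1B, EIF2D and EIF4EBP1, at 0.53, 0.62 and 0.57, pass in the authors' deposited table while their TE was not called from the counts. Both estimates come from the same libraries.

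**Figure D5:**
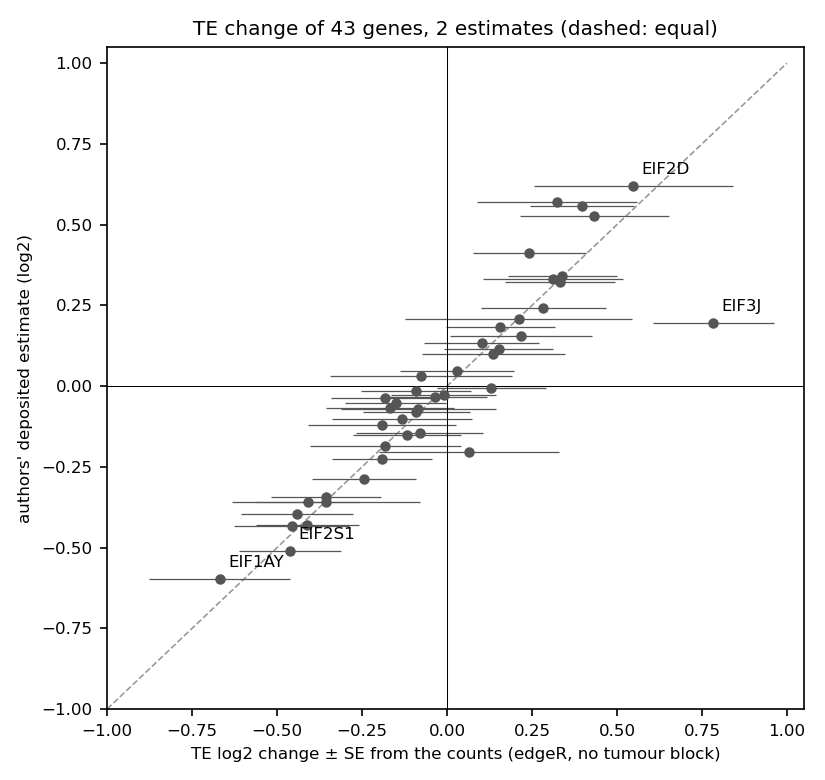
TE log2 change of 43 genes from the counts (edgeR without the tumour block, bars are SE) against the estimate of the authors' deposited table, with a dashed line where they are equal. Most genes lie along the line, and EIF3J lies far to the right of it, at 0.78 against 0.195.

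Start sites were compared for a pyrimidine tract, since messengers of many translation factors begin with a C followed by pyrimidines (a TOP-like start), and for purine runs, since zotatifin clamps eIF4A on purines. RefSeq promoter sequences (GRCh38.p14) were found for 38 of the 47 genes, and only the transcript strand was searched. EIF2AK1, EIF2S2, EIF3A, EIF3CL, EIF3E, EIF3G, EIF3H, EIF3L and EIF4EBP1 had no entry. A C followed by at least 4 bases that are each C or T lay at the annotated start of 8 of 38 genes (21.1%): EIF2A, EIF2D, EIF2S3, EIF2S3B, EIF3D, EIF3F, EIF3K and EIF3M. The share was 4.7% of the 14662 genes of the tables with a promoter entry, 4.07% of all 35116 promoters, and 61.5% of 65 cytosolic ribosomal protein genes. A tract beginning within 5 bases either side of the annotated start was found in 15 of the 38 genes (39.5%), EIF3J and EIF3C among them. That share was 22.3% of the genes of the tables with an entry and 73.8% of the ribosomal protein genes. Such a tract can lie wholly before the annotated start, outside the transcribed bases, as it does in EIF3C. In EIF3J it lies in the transcribed bases. Examples from eIF3, eIF2 and the copy EIF2S3B, with the transcribed bases in capitals, are shown because they carry the tract, and EIF3J and EIF3C because their footprints rose without it at the first base:
EIF3F, chr11:7987322-7987351, plus strand: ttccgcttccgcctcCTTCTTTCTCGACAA
EIF3D, chr22:36529152-36529181, minus strand: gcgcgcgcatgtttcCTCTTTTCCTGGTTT
EIF2S3, chrX:24054941-24054970, plus strand: ggggtgatttccttcCTCTTTTGGCAACAT
EIF2S3B, chr12:10505875-10505904, plus strand: ggggtgactttcttcCTCTTTTGGCAACAT
EIF3J, chr15:44537132-44537161, plus strand: cacctccgccgtgctAACTCCTCGCTAGCT
EIF3C, chr16:28688543-28688572, plus strand: ctctgtcccacccccGTGGCAGGCAGCCCT

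The 8 genes with the tract at the start had a median footprint log2 change of −0.010, with 4 of 8 above 0 and none called. The 26 tested genes without it had a median of −0.0076, with 12 above 0, 2 risen and 2 fallen. Over all genes, 56.1% of 442 with the tract and 49.3% of 7190 without were above 0. With the tract beginning within 5 bases either side of the start, 7 of 14 tested were above 0 (median 0.0052), 2 rose and 1 fell. Among the 8 with the tract at the start, EIF2D, EIF3D and EIF3F had the highest changes (0.36, 0.33 and 0.29). EIF2S3 and its copy EIF2S3B, which share the same first 15 transcribed bases and both enter the 8, were below 0. A run of at least 6 purines (A or G) within the first 50 transcribed bases was present in 17 of the 38 genes (44.7%), against 43.6% of the genes of the tables with an entry and 47.3% of all promoters. It was present in EIF2S1, EIF5, EIF1AX and EIF6, whose TE fell with the tumour as a block. The run is in capitals:
EIF2S1, chr14:67360347-67360376, plus strand: aagcgcacgctGAGGAGGAtcggcggccgg
EIF5, chr14:103334257-103334286, plus strand: agaggtgagtccggtGAAGGGGcggccccc
EIF1AX, chrX:20141789-20141818, minus strand: gtggacgcaggcggatctctGAAGAGctgg
EIF6, chr20:35284688-35284717, minus strand: gtgtGAGGGGAAcctgggagggtcagctcc

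Of the tested genes with such a run, 2 of 14 had a TE change above 0 (median −0.17), the 2 being EIF1B and EIF1AD. Of those without, 11 of 20 did (median 0.12). EIF2S3 and its copy EIF2S3B carry the same run and both enter the 14. Over all genes, 45.6% of 3243 with a run and 55.5% of 4389 without had a TE change above 0, with medians of −0.043 and 0.041. EIF1AY and EIF2B1, which also fell in blocked TE, had no run. A motif of 4 GGC units in a row lay in the first 50 transcribed bases of EIF5AL1 alone among the 38 genes (2.63%), against 1.17% of the genes of the tables with an entry.

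A list of 27 partners of these factors (poly(A)-binding proteins and their interactors, reinitiation and recycling factors, and regulators of eIF2 phosphorylation) was tested beside them. This list, too, was drawn up with earlier results of these data known. In footprints 6 of 26 tested fell and none rose, against 3.92% of all genes called lower, with a median log2 change of −0.082. PAIP2, an inhibitor of the poly(A)-binding protein, went from 251, 253 and 225.6 CPM to 160, 131 and 168 CPM (−0.65 ± 0.12, edgeR adjusted p = 0.000897), and PABPC4, a poly(A)-binding protein, from 128, 118 and 144 CPM to 92.0, 61.3 and 84.7 CPM (−0.68 ± 0.14, edgeR adjusted p = 0.00324). Groups did not overlap for either gene. The other genes that fell were PAIP1, which binds poly(A)-binding protein and eIF3, DENR, which removes tRNA from recycled subunits, ABCE1, which splits the ribosome, and DNAJC3, an inhibitor of eIF2 kinases, at −0.35 to −0.49. PAIP1 and DENR were not called with DESeq2. Without vehicle replicate 1, PABPC4 and PAIP2 were the 2 still called, and without any other single library 3 or 4 partners were. None of the 27 was called in RNA. In TE 1 fell, PAIP2. With the tumour as a block, PABPC1 and GCN1 rose and PABPC4, PAIP1, PAIP2, PDCD4 and CDC123 fell, against 8.66% of all genes called, 3.62% higher and 5.05% lower. With 1 tumour left out, 3 to 6 partners were called, 3 without zotatifin replicate 2 and 4 without vehicle replicate 1. PAIP2 was called in 6 of these 6 fits, PAIP1 and GCN1 in 5, PABPC1 in 4, CDC123 in 3, and PABPC4 and PDCD4 in 2.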

How the data were processed

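The authors deposited raw counts per transcript for RNA and footprints. Per the submitters' processing notes, the build was hg38 and the tools included Bowtie2 2.3.5, cutadapt 2.3, DESeq2 and UMI-tools. Step order, strand setting and the counted region were not given in the sources used here. The authors' RNA table holds a mean signal, a log2 fold change, a test score and p-values. The authors' footprint table holds an estimate read as a natural log of the TE change, because over 1566 genes its weights on the log2 footprint and RNA changes were 0.665 and −0.666, where the natural log of 2 is 0.693.

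Groups follow titles and column names. The treatment field contradicts the title in 6 of 12 samples, and the code number of the column names was read as zotatifin. The members and lists were chosen with earlier results of these data known. Named genes were those called in at least 1 comparison plus the largest footprint change of each complex; EIF1, EIF1B, EIF2A, EIF2AK3, EIF2B4, EIF2S1, EIF2S3, EIF3D, EIF3F, EIF3G, EIF3I, EIF4ENIF1, EIF5 and EIF5A were named after their values were seen.

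Counts were tested in R 4.3.3 with edgeR 4.0.16 (filterByExpr, minimum count 10 and minimum total 15, TMM scaling, robust quasi-likelihood F test, Benjamini-Hochberg threshold 0.05), on all genes, after tests on simulated data. Standard errors are the change divided by the root of F. TE was fitted over 12 libraries with TMM within each assay. Over 4889 genes, deviations of footprint and RNA libraries that share treatment and number had correlations of 0.217 to 0.440 (6 pairs), the remaining combinations −0.380 to 0.118 (12 pairs), so numbers mark tumours within a treatment. Libraries of different treatment with the same number correlated at −0.0945 to 0.181, so numbers were not taken to pair treatments. Alternatives were other scaling, filters, DESeq2 1.42.0, blocks, summed copies and each library left out. A planned comparison of levels per coding length was not run, because no coding lengths were used here.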

Additional observations from a re-analysis of the deposited data

How the results depend on the processing

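The same 6 initiation factors were called in footprints under RLE size factors, no low-count filter, a minimum count of 20, DESeq2, a replicate block and library totals without TMM. The 14 genes named by rule kept their direction under each of these, except that EIF2D and EIF4EBP2 have no DESeq2 adjusted p. The median footprint change of initiation factors, 0.0051, lay at −0.0051 with library totals, so small changes near 0 have no settled sign. With near-identical copies summed (an alternative chosen after seeing the data, as were library totals and the tumour block with tumours left out), 4 were called. DESeq2 gave an adjusted p to 5120 genes in footprints and called 416 of them, against 681 of 9544. In RNA, no low-count filter called 624 genes and the replicate block 527, against 225, and with either, or with DESeq2, 2 initiation factors were called in place of 1, EIF4EBP2 being the addition. In TE, DESeq2 called 272 genes and 2 initiation factors, EIF2S1 being the addition, and the replicate block by tumour 819 genes and 10 initiation factors, against 160 and 1; without vehicle replicates 1, 2 and 3 and zotatifin replicates 1, 2 and 3 in turn, the blocked fit called 532, 661, 568, 577, 454 and 533 genes and 3, 7, 3, 5, 4 and 5 initiation factors. Leaving out 1 library gave 185 to 726 genes and 0 to 6 initiation factors in footprints, 11 to 396 and 0 in RNA, and 56 to 132 and 0 to 1 in TE; vehicle replicate 1 gave the lowest counts of genes. Uncalled changes near 0 changed sign: EIF5B in RNA to 0.0041 with no low-count filter, and, with 1 library left out, EIF5B between −0.22 and 0.023 in footprints and −0.089 and 0.083 in RNA, EIF6 footprints between −0.022 and 0.091, EIF2AK4 RNA between −0.13 and 0.055, EIF2S3B RNA between −0.034 and 0.21, and EIF4EBP2 TE between −0.25 and 0.070, or, with the tumour block, at 0.0031 without vehicle replicate 1 and 0.072 without zotatifin replicate 3. The cause of these shifts was not tested beyond the smaller number of libraries. Depth limits the 4 genes that were not tested in footprints, and 3 tumours a group limit all calls. Levels per coding length were not run.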
